A study of Mus musculus with 81 samples.

Results

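RLTR20 elements are long terminal repeats (LTRs) of mouse endogenous retroviruses (mERVs) of the ERVK class. They were taken as every locus whose species name, the name RepeatMasker gives to a repeat, begins with RLTR20. This rule found 28518 of the 970384 LTR loci in the mERV RNA data (2.94%), spread over 16 subtypes of the 680 species, and all 16 belong to the ERVK class. The same loci were followed in 62 RNA libraries and, where methylated DNA windows lay inside them, in methyl-binding domain (MBD) libraries.

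All mice carried the OG2 transgene, an EGFP reporter driven by the promoter and distal enhancer of *Pou5f1*/Oct4, which marks the prenatal germline, and F0 dams had received either 50 nM tributyltin (TBT), an organotin compound, or the DMSO vehicle. Cells of E18.5 testes were separated by FACS: EGFP-positive germline cells fell into P4 and P5, told apart by side scatter, and P6 held EGFP-negative somatic cells. In F1, whose mothers were themselves exposed, P4 had 5 DMSO and 7 TBT libraries, P5 had 4 and 7, and P6 had 5 and 7. In F3, the great-grandoffspring of the exposed dams, each population had 4 DMSO and 5 TBT libraries. MBD libraries of P6 cells numbered 3 DMSO and 4 TBT in F1 and 5 DMSO and 7 TBT in F3. The labels do not say which libraries came from separate litters. The F1 germline libraries carry a first number that several share (43, 44 and 48 with DMSO, 45 and 47 with TBT) and whose meaning is not given; the study names independent litters for its F1 methylation profiles. The p-values measure only the spread between libraries, which may be partly technical.

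Between 246520 and 8161548 reads per library (median 4374595) fell on LTR loci. Levels are given as RPM, the reads at a locus in 1000000 LTR reads of its library. Of the germ cell marker genes chosen, 6 of 10 held an LTR locus, and the loci in them summed to 592 to 17565 RPM in P4 and P5 libraries against 10.4 to 198 in P6 libraries. Loci in Sertoli cell genes (4 of 6 with a locus) summed to 623 to 1024 in P6 libraries and 0 to 98.6 in germline libraries, and those in interstitial, vessel and blood cell genes (5 of 6) to 325 to 494 and 0 to 70.9. Leydig cell genes (2 of 5 with a locus) overlapped, with 39.7 to 291 in F1 P6 and 3.30 to 210 in F1 germline libraries, and 25.3 to 61.8 and 0 to 33.9 in F3. A few libraries stood apart in the share of their LTR reads that lay outside annotated genes. In F1 P6 cells, TBT libraries 7 and 8 had 6.79% and 6.95%, and the other TBT libraries at most 1.82%. In F3 P4 cells, TBT 5 and 9 had the fewest reads (833449 and 1187234) and the highest shares, up to 12.1%. In F3 P5 cells, DMSO 1, DMSO 2 and TBT 5 had shares up to 31.1%, and TBT 5 had only 246520 reads. The TBT comparisons in F1 P6, F3 P4 and F3 P5 cells, and that of P5 with P4 in F3 DMSO libraries, were also made without them. This was not done for P5 against P4 in F3 TBT libraries. Nor was it done for the F3 test of whether the response to TBT differed between P5 and P4.

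An LTR is the regulatory end of a retrovirus: it carries the promoter and the polyadenylation signal of the provirus, and a full LTR of this kind opens with TG and closes with CA. Recombination between the ends of a provirus leaves a solitary LTR without any viral gene. Such LTRs can still act as promoters or enhancers for nearby sequence, and in the fetal male germline, where DNA methylation has been erased and is being laid down again, many of them are under the watch of the piRNA pathway and of histone methylation. RLTR20 has no internal part of its own among the annotated species, so that all of its RNA here was read from LTR sequence or from transcripts that run across it.

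The subtypes were of very different make. The sequences below were chosen because they carry this difference. They are shown on the plus strand of GRCm38 (mm10), since the files do not give the strand of the element. The A4 and C1_MM members come from introns and are short; capitals in them mark unbroken alternating CA or TG runs of at least 12 bases. The A4 element in an intron of Atf3 (chr1:191176899-191176968) is shown because it was the one member past the threshold in a TBT contrast, and the elements in introns of Arpc1a (chr5:145103836-145103887) and Ndufa7 (chr17:33832298-33832350) because they had the highest RLTR20 levels in F1 P4 cells.
RLTR20A4, Atf3 intron: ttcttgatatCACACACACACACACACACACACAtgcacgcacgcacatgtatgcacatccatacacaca
RLTR20A4, Arpc1a intron: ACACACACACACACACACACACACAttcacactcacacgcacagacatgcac
RLTR20C1_MM, Ndufa7 intron: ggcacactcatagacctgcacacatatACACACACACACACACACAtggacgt

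The next 3 lie outside genes and are of the longer kind. They are members of B3A_MM (chr11:68939672-68940204), A2B_MM (chr10:85324381-85324933) and A3_MM (chr8:104686372-104686875), shown because they led the levels outside genes, the first 2 in F1 P4 and the last in F1 P5 cells, and the first 300 bases of each are given. Capitals mark the TG at the start of the printed strand and any AATAAA, the core of the polyadenylation signal, or TATAAA, the core of the promoter box of that name, on either strand.
RLTR20B3A_MM: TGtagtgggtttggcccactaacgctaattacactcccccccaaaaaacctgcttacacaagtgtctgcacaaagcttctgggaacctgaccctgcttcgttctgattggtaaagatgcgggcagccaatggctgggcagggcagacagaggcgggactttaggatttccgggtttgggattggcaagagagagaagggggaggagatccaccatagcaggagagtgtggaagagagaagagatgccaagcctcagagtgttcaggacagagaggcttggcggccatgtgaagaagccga
RLTR20A2B_MM: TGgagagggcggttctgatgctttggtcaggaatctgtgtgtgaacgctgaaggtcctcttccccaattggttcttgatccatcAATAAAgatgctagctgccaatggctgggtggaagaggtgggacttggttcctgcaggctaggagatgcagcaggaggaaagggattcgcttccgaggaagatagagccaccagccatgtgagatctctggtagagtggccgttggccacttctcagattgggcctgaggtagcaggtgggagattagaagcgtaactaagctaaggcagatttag
RLTR20A3_MM: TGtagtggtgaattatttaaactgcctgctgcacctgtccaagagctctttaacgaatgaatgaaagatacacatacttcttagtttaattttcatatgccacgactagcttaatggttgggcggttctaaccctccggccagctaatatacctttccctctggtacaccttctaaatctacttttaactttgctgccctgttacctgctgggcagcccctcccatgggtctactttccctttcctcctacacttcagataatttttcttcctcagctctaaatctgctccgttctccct

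The short CA-rich kind made up most of the family by number. RLTR20A4 held 11515 loci with a median length of 69 bases, RLTR20C1_MM 5553 loci of 64 bases and RLTR20C2_MM 3616 loci of 74 bases. Together these 3 subtypes were 20684 loci, 72.5% of RLTR20, and in 86.7% of them dinucleotide steps of the CA repeat, on either strand, made up at least 30% of all steps, the measure called CA-rich here. The cut was set after the sequences were seen, and 1589 members lay within 5 percentage points of it. Of the A4 members 93.4% were CA-rich, of C1_MM 88.6% and of C2_MM 62.5%, and these were the 3 highest shares among the 603 species with at least 50 loci. In all LTR loci other than RLTR20 the share was 2.00%, so that RLTR20 alone held 18026 of the 36817 CA-rich LTR loci (49.0%). An unbroken run of at least 12 bases occurred in 71.3% of the CA-rich members.

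The other 13 subtypes held 7834 loci with a median length of 292 bases, and only 1.15% of them were CA-rich. Their median lengths ran from 181.5 bases in A1 (98 loci) and 186 in A (361 loci) to 354.5 in B1 (668 loci) and 387 in B5_MM (868 loci). Among all 3504 members of at least 400 bases, 32.2% opened with TGTAG or closed with its reverse complement, against 7.12% of other LTR loci of that length. This signature was most frequent in A2B_MM (59.7%), D (51.8%) and B5_MM (50.9%) and least frequent in B2 (7.14%). The windows of 300 bases at the start of 4602 members that were not CA-rich held AATAAA, on either strand, in 48.9%, against 35.3% of 427103 windows of other LTR loci, and TATAAA in 16.1% against 24.5%. AGGTCA, the letters that nuclear receptors of the kind bound by TBT recognise, was in 6.52% against 20.9%. A match is a string of letters and says nothing about binding.

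**Figure D1:**
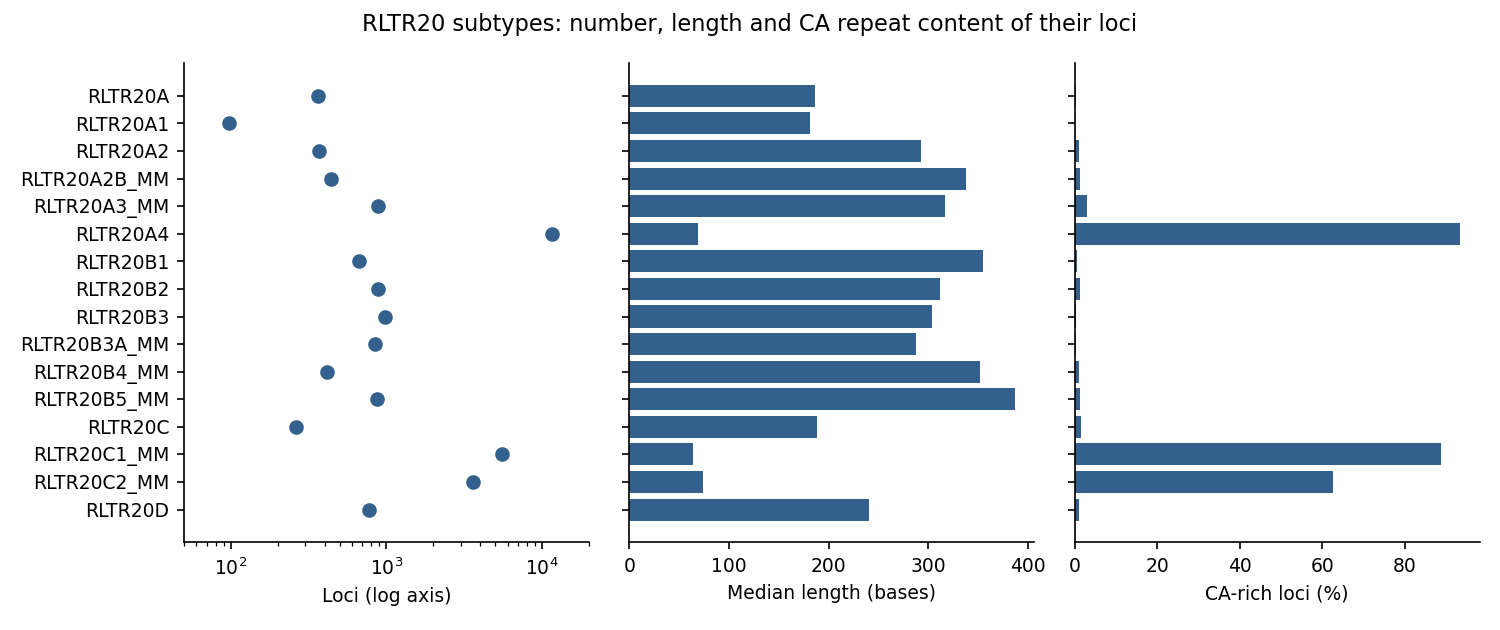
The 16 RLTR20 subtypes by number of loci, length and composition; each row is a subtype, and the axes give the number of loci (log axis), the median length in bases and the share of CA-rich loci in percent. A4, C1_MM and C2_MM hold 72.5% of the loci and are short and CA-rich, while 1.15% of the loci of the other 13 subtypes are CA-rich.

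Against the GENCODE annotation, 56.2% of RLTR20 loci lay outside genes, 42.1% in introns and 1.75% (500 loci) overlapped an exon, of which 35 were coding sequence, 193 UTR and 272 non-coding exons. The 3 CA-rich subtypes lay in introns more often than the other 13 (46.3% against 30.8%). RLTR20 held 3.12% of its loci on the X chromosome, compared with 6.05% of other LTR loci. The Y chromosome held 251 of the 843 B3A_MM loci (29.8%), while 8 of the other 12 long subtypes had no locus there.

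The reads, in contrast to the loci, were concentrated in introns. A median of 93.5% of the RLTR20 reads of a library lay in introns, 5.59% in loci that overlap exons and 0.778% outside genes, the last ranging from 0.0786% to 20.8% over the 62 libraries. CA-rich loci held a median of 69.4% of the reads. Within an intron most counts were close to those of a neighbouring LTR element. For 5314 pairs of an RLTR20 locus and its nearest LTR locus in the same intron, with at least 50 pooled reads, 4503 (84.7%) agreed within 5% in their pooled reads and 1448 were equal in each of the 62 libraries. The share was 86.6% among the 3597 pairs under 1000 bases apart and 77.9% among the 68 pairs more than 10000 bases apart. For 4172 pairs in neighbouring introns of the same gene it was 34.2%, with 188 equal in all libraries and a median difference of 9.82% against 0.455% in the same intron.

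The element of 60 bases in an intron of Camta1 (C1_MM, chr4:151805393-151805452) is an example. It had 47643 pooled reads, as did an ORR1F element 847 bases away, and the counts were equal in 62 of 62 libraries. The Atf3 element printed above had 2042 reads and an MTEa element 3171 bases away 2040, equal in 56 libraries, and the Ndufa7 element had 58203 and its RLTR17B_Mm neighbour 58206. An element in an intron of Tmem232 (A4) and an RMER15 element 4454 bases away each had 1138 reads, with no library different. Whether reads were assigned to elements from spliced or unspliced transcripts was not tested, and the sources used here do not state how reads that map to several places were treated. A count at an intronic RLTR20 locus below is therefore given with its host gene, and the loci outside genes are treated apart.

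The family held a larger share of the LTR reads in the somatic than in the germline libraries. The medians were 2.88% of LTR reads for F1 P4 libraries, 2.94% for F1 P5 and 3.49% for F1 P6, and 2.63%, 2.65% and 3.53% for the same populations of F3. All P6 libraries (3.33% to 3.55%) lay above all germline libraries (1.77% to 3.01%). Germline and somatic tables, and those of F1 and F3, were normalized separately, so levels between them are given in RPM and were not tested, and in sorted bulk cells fewer cells of a type and less RNA per cell cannot be told apart. Outside genes the order was another: the share of RLTR20 reads that lay outside genes had a median of 0.694% in F1 P4, 1.87% in F1 P5 and 0.277% in F1 P6 cells, and of 1.18%, 4.54% and 0.164% in F3. The share of all LTR reads outside genes moved in the same way, with medians of 2.19%, 5.29% and 1.496% in P4, P5 and P6 cells of F1 and of 3.22%, 11.2% and 1.34% in F3. Its part in the levels below was not tested.

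**Figure D2:**
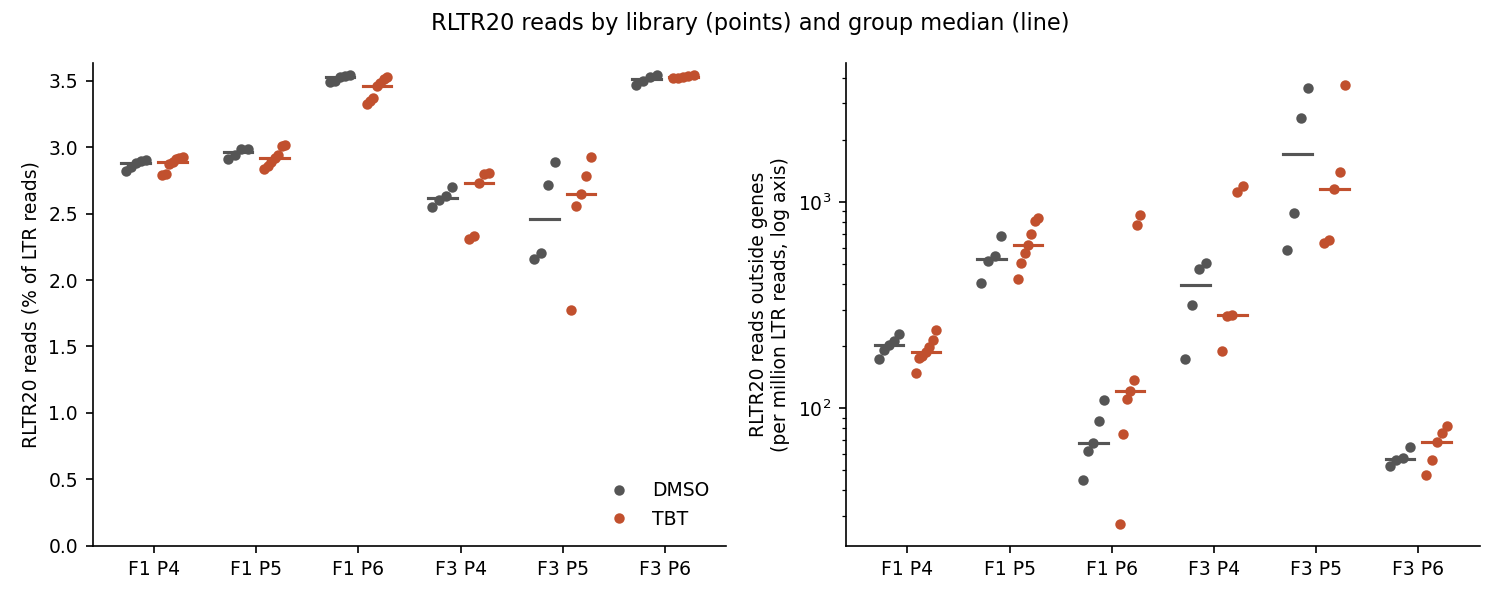
RLTR20 in 62 libraries: on the left the percent of LTR reads at RLTR20 loci, on the right the RLTR20 level outside genes in RPM on a log axis. Points are libraries and lines group medians. P6 libraries lie highest on the left and mostly lowest on the right, where F3 P5 TBT 5 reaches 3687 and the other TBT libraries of F3 P5 lie between 633 and 1399.

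Reads per length of element put C1_MM and A4 first in F1 P4 and P6 cells. As intronic counts mostly matched those of neighbouring elements, a value per length favours short elements. It does not rank the subtypes by transcription. C1_MM had 1402 RPM per 100 kb of its loci in F1 P4 cells and 1716 in F1 P6 cells (medians), and A4 had 1360 and 1663. C2_MM, the other CA-rich subtype, had 868 and 984, and in P6 cells lay below RLTR20A with 1182. B3A_MM was lowest in F1 P4 cells, with 116. Median lengths were 64 bases in C1_MM, 69 in A4, 74 in C2_MM, 186 in RLTR20A and 288 in B3A_MM. Without division by length, F1 P4 medians were 6462 RPM over 5553 loci of C1_MM and 12482 over 11515 of A4. C2_MM had 3980 over 3616 loci, RLTR20A 414 over 361 and B3A_MM 315 over 843. RLTR20A was higher in somatic than in germline cells: its loci held 302 to 562 RPM in F1 P4 libraries (median 414), 329 to 481 in P5 (median 423) and 787 to 1248 in P6 (median 1001). In F3 the values were 113 to 404 (median 325), 199 to 428 (median 373) and 764 to 902 (median 845). The P6 libraries did not overlap the germline libraries in either generation. Outside genes RLTR20A was far lower and ordered in another way, with a median of 1.29 RPM in P4, 13 in P5 and 1.47 in P6 cells of F1, and of 3.88, 14.9 and 0.644 RPM in F3.

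Outside genes each of the 16 subtypes had its highest F1 median in P5 cells. These medians ran from 14 RPM per 100 kb in A1 to 37.6 in D and 37.8 in A2B_MM. D led in F3 P5 cells with 107.7, against 25.8 in B4_MM. In F1 P6 cells A1 (8.75) and C1_MM (8.03) had the highest medians, and in F3 P6 cells C had a median of 0. The A1 value rests on few reads, as its loci outside genes held 0 to 4.81 RPM in F1 P6 libraries (median 1.33). Members that were not CA-rich had a median of 20.8 RPM per 100 kb in F1 P5 DMSO libraries, next to 23.5 at all other LTR loci outside genes. In P6 DMSO libraries of F1 the medians were 1.75 and 6.24.

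In each population most members had no read at all. In F1 P4 cells 9440 of 28518 loci (33.1%) had a read in at least 1 library, in F1 P5 cells 13270 (46.5%) and in F1 P6 cells 9610 (33.7%), and in F3 29.8%, 41.6% and 26.6%. The 100 loci with the most reads held between 22.9% of the RLTR20 reads (F3 P6) and 34.5% (F3 P4). These leading loci were intronic or exonic. The A4 element of Arpc1a, a subunit of the Arp2/3 complex that nucleates actin filaments, had 225 to 300 RPM in F1 P4 libraries, 156 to 239 in P5 and 25.7 to 46.4 in P6. The C1_MM element of Camta1, a calmodulin-binding transcription activator, had 149 to 241, 106 to 215 and 12.1 to 37.2. Both were higher in every F1 germline library than in any F1 somatic library.

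Other members were higher in somatic cells, and the elements of Smoc2 and Col4a1 had few germline reads. A C2_MM element in an intron of Smoc2, which encodes a secreted matrix protein, had 168 to 285 RPM in F1 P6 libraries and at most 5.42 in F1 germline libraries, and 171 to 248 and at most 2.94 in F3. A C2_MM element in an intron of Col4a1, a collagen of basement membranes, had 45.3 to 233 and 153 to 230 in F1 and F3 P6 libraries and at most 11.4 in any germline library. A C1_MM element in the UTR of Serinc3 had 199 to 380 in F1 P6 libraries against 12 to 79.2 in the F1 germline, and 234 to 281 in F3 P6 libraries against 0 to 74.1 in F3 P4 and 24.9 to 211 in F3 P5. An A4 element in an intron of Serpine2, a protease inhibitor, was graded, at 17.9 to 40.4 in F1 P4, 89.6 to 135 in P5 and 147 to 258 in P6.

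Outside genes the loci named here had medians of at most 13.6 RPM in any population, with single libraries far above them in F3. The B3A_MM locus printed above, 2951 bases beyond the 3′ end of Arhgef15, had 0.422 to 7.69 RPM in F1 P4 libraries, 2.41 to 9.34 in P5 and 0 to 0.649 in P6, where 9 of 12 libraries had none. In F3 it had 2.40 to 70.8 in P4 (median 7.76), 0 to 32.4 in P5 (median 5.33) and at most 0.685 in P6 libraries. The A3_MM locus had 0 to 1.40 in F1 P4, 2.61 to 10.7 in F1 P5 and a read in 1 of 12 F1 P6 libraries, and in F3 it had at most 2.45 in P4, 0 to 28.6 in P5 (median 6.40) and none in all 9 P6 libraries. A C2_MM locus (chr5:144723473-144723546) had 0.462 to 4.53 in F1 P4, 1.02 to 6.05 in F1 P5, 1.66 to 7.20 in F3 P4 and 3.52 to 126 in F3 P5 libraries (median 13.6), and none in any P6 library. A C1_MM locus 1369 bases beyond the 3′ end of Gid8 (chr2:180720102-180720163) had the opposite order, with 6.27 to 15.6 in F1 P6 and at most 4.32 in the F1 germline. Some values came from single libraries: a B2 locus on chr16 (chr16:87853351-87853896) had 284 RPM in 1 F3 P5 library and none in the other 8, nor in any library of the other populations.

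The comparison of P5 with P4 cells in the DMSO-F1 group asked how the loci differed between both germline populations without TBT. Values are CPM as deposited, that is counts scaled to the library by the authors, and fold changes are differences of log2(value + 1 unit), where 1 unit is the value of about 1 read, which understates the change of low loci. Of 3448 RLTR20 loci whose mean reached 5 units, limma called 222 higher and 168 lower in P5 cells at an FDR under 0.05. Of all 100236 loci tested, 12.4% were called, 6.47% higher and 5.97% lower, and of the RLTR20 loci 6.44% and 4.87%, near that background. The CPM of P4 and P5 libraries did not overlap at 308 of the 390 called loci, beside 75.3% of the 12471 loci called in all. The split depended on the scaling, with 262 higher and 66 lower when each library was scaled to a common total, and 257 and 60 with the quasi-likelihood test of edgeR. Of all loci, 7.5% were then higher and 2.6% lower with a common total, and 7.67% and 2.41% in edgeR. Leaving out 1 library gave 230 to 421 calls. A fit with the label numbers that P4 and P5 libraries share as a block gave more calls in both directions. Both are given further below with their shares of all loci.

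By subtype, the total of RLTR20B2 was higher in P5 cells and those of A2, A4, C1_MM and D were lower, 1 and 4 of 16, at a background of 15.2% higher and 30.4% lower of 665 species. B2 had 383 to 440 CPM in P4 and 476 to 534 in P5 libraries without overlap, a log2 change of 0.28 ± 0.057 (SE, FDR 0.0014 in limma). D had 696 to 720 in P4 and 574 to 626 in P5, also without overlap, a change of -0.22 ± 0.044 (FDR 0.0011). Those of A4 (-0.13, and 0.0028 with a common total) and C1_MM (-0.12, and 0.013) turned with the scaling, and with a common total 6 were higher and none lower, at a background of 31.9% and 11.4% of species. Those of A2 and D kept their sign with a common total but lost the call, at -0.090 for both.

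Outside genes the picture was another, in totals formed after the data had been seen. Here 15 of 16 subtypes were higher in P5 cells and none lower, with a median log2 change of 1.45, at a background of 74.2% of 586 species (median 1.12). RLTR20A3_MM had 4.13 to 10.4 CPM outside genes in P4 and 14.5 to 31.0 in P5 libraries (1.89 ± 0.365, FDR 8.04e-05), B5_MM 4.90 to 19.95 and 27.7 to 43.1 (1.65 ± 0.343), and RLTR20C 0 to 1.37 and 2.15 to 10.5 (2.98 ± 0.816). In these 3 subtypes no P5 library was as low as the highest P4 library. A1, with at most 4.93 CPM, was the subtype that missed the threshold (1.48 ± 0.945, FDR 0.149). Scaled to a common total, 15 were higher (79.0% of species), and in the TBT libraries of F1, which share no library with these, 16 were higher (93.4%). The share of all LTR reads outside genes rose beside them, from 2.13% to 2.51% in the P4 libraries to 3.84% to 6.18% in the P5 libraries, and its part in the subtype differences was not tested.

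**Figure D3:**
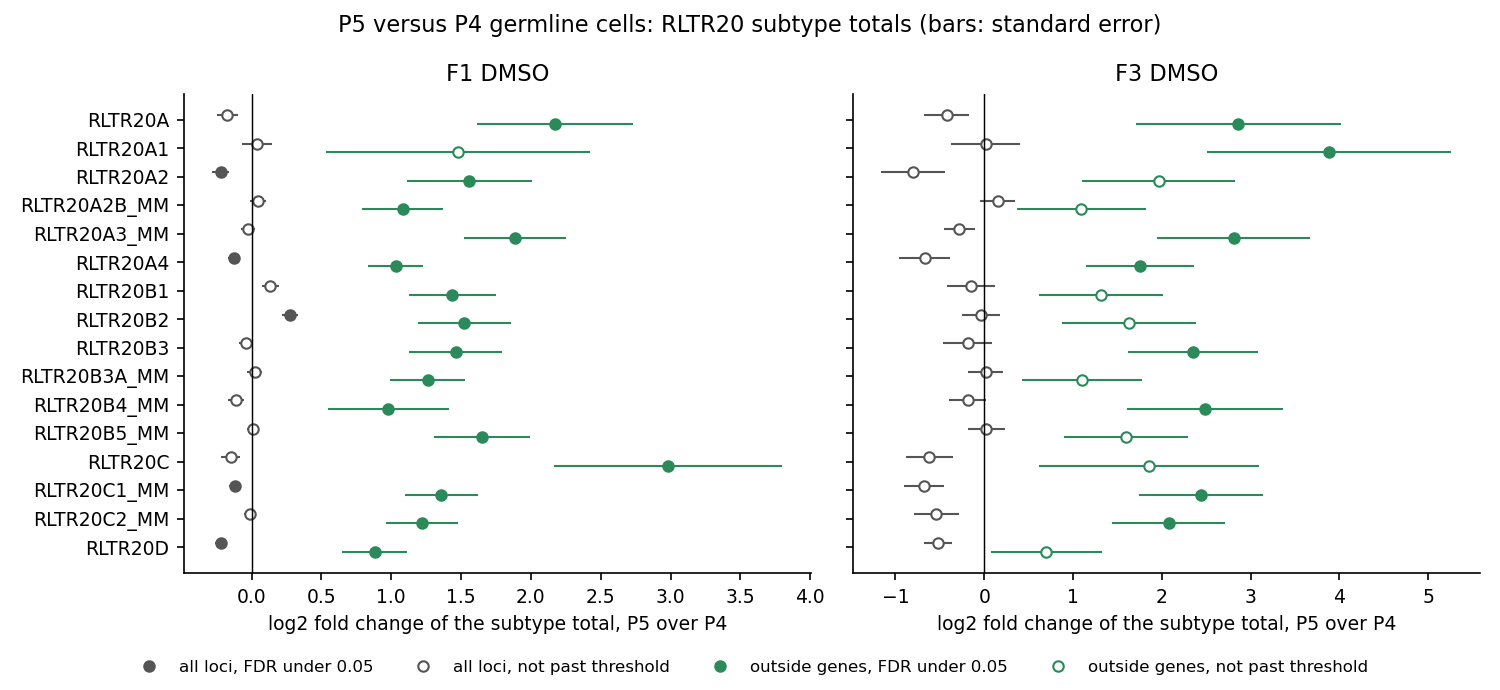
Log2 change of the total of each RLTR20 subtype in P5 against P4 DMSO libraries, for F1 and F3. Grey points are totals of all loci and green points totals of loci outside genes, bars are standard errors, and filled points have an FDR under 0.05. In F1 the grey points lie near 0 and 15 of the 16 green points are filled and above 0.

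Single loci gave the extremes. The A4 locus in an intron of Ncan, which encodes the proteoglycan neurocan (chr8:70111665-70111729), had 1 read in P4 library 43-4 and none in the other 4 P4 libraries, and 16 to 24 reads in each of the 4 P5 libraries (2.76 to 5.60 CPM). Its pooled ratio per LTR read was 83.9, with an exact 95% interval of 14.6 to 3356 for counting error (log2 change 3.89 ± 0.720, FDR 0.00135). The A3_MM locus on chr8 printed above lay outside genes: it had 0.516, 0, 1.39, 0.739 and 0 CPM in the P4 libraries and 7.41, 5.84, 6.37 and 3.53 in the P5 libraries, without overlap, and changed by 3.33 ± 0.590 (FDR 0.00092). It was 1 of 35 RLTR20 loci outside genes that could be tested, of which 6 were higher and 0 lower, at a background of 15.2% and 1.57% of the loci outside genes. A C1_MM locus in a coding exon of the collagen gene Col24a1 (chr3:145461520-145461608) had 4 reads in P4 library 43-5 and none in the other 4, and 9 to 27 reads in each P5 library (3.28 ± 0.768, FDR 0.00703).

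Among the loci that fell were 2 A4 elements in introns of Cyfip2, a component of the WAVE complex that controls actin. The one at chr11:46220273-46220322 had 3.89 to 7.39 CPM in P4 and 0.344 to 3.35 in P5 libraries (-1.60 ± 0.427, FDR 0.0162), and the other 3.70 to 6.40 and 0.344 to 3.03 (-1.35 ± 0.431, FDR 0.0419), so that neither overlapped. The second call was lost with a common total, in edgeR and without any of P4 43-4, 43-5, 44-1 and 48-4 or P5 43-4 and 44-1 (-0.77 without the last). The A4 element of Tmem232 (chr17:65282053-65282136) had 5.17 to 11.8 CPM in P4 and 2.57 to 4.07 in P5 libraries (-1.22 ± 0.282, FDR 0.00651). In the TBT libraries of F1 its change was -0.20, not past the threshold.

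In F3 the same comparison had wider spread. Of 3005 RLTR20 loci tested between P5 and P4 DMSO libraries, limma called 0 (351 had an unadjusted p under 0.05), at a background of 0.145% of all loci, and edgeR also called 0. The P4 and P5 libraries share replicate numbers here as in F1. With these as a block, 1 locus was higher and 8 were lower, beside 0.248% of all loci higher and 0.379% lower. Without P5 DMSO 3 the count was 59, of which 58 were lower (2.11% of the RLTR20 loci tested), while 2.55% of all loci were called, 2.18% as lower. Among the loci not called, a RLTR20C element lies in an exon of Platr4, a lincRNA named for its link to pluripotency (chr3:41492881-41493378), and had 0, 0.978, 0.984 and 1.17 CPM in the P4 and 15.3, 40.3, 11.2 and 4.16 in the P5 libraries. The groups did not overlap, yet the change of 3.93 ± 1.09 had an FDR of 0.190, and in F1 DMSO libraries the same locus changed by 2.03 (FDR 0.0322). The C1_MM element of Rtraf (chr14:19822249-19822353) had 412, 446, 280 and 315 CPM in P4 and 122, 63.4, 149 and 123 in P5 libraries, again without overlap (-1.70 ± 0.356, FDR 0.0549), and changed by -0.42 in F1 (FDR 0.00738).

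The subtype totals of F3 were called in 0 of 16 cases by limma (5 had an unadjusted p under 0.05), with 9.5% of all species called. edgeR called 1 lower, beside 8.45% of all species higher and 8.45% lower, and with the replicate block 4 were lower, beside 8.6% and 20.7%. Leaving out the P5 DMSO libraries 1 and 2, which stand apart, gave 3 lower, beside 4.38% and 15.3%. RLTR20D was nearest to the threshold, with 907 to 1065 CPM in P4 and 664 to 787 in P5 libraries (-0.52 ± 0.160, FDR 0.0583). Outside genes 8 of 16 totals were higher in P5 cells, at a background of 39.3%, with a median change of 1.91 against 1.59 for all species, and the blocked count was 12 (58.2% of species). RLTR20C1_MM had 14.8 to 30.8 CPM outside genes in P4 and 59.8 to 271 in P5 libraries without overlap (2.44 ± 0.699, FDR 0.00398), while D overlapped (0.70 ± 0.626, FDR 0.338). Without P5 DMSO 1 and 2 no total was called (1.69% of species), although 15 of 16 had a positive sign, and the TBT libraries of F3 gave 2 (15.5%).

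The comparison of TBT with DMSO asked whether ancestral TBT had changed the elements. By subtype no total was called in any of the 6 combinations of generation and population: limma called 0 of 16 in each, and of the 660 to 668 species tested 0 were called. An unadjusted p under 0.05 was met by 4 totals in F1 P4 cells (7.68% of species), by 1 in F3 P6 cells (9.37%) and by 0 in F1 P5 (4.79%), F1 P6 (6.36%), F3 P4 (3.02%) and F3 P5 cells (0%). In F1 P4 cells these were A4, B1, B2 and C1_MM, each higher with TBT. RLTR20B1 was the largest of them, with 559 to 671 CPM in DMSO and 581 to 804 in TBT libraries, where 5 of 7 TBT libraries lay above all DMSO libraries (0.25 ± 0.073, FDR 0.439). In F3 P6 cells RLTR20A1 had 109 to 150 CPM with DMSO and 97.1 to 118 with TBT (-0.25 ± 0.0887, FDR 0.344).

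The total of RLTR20A was not called by limma in any population. The study counted single called loci per species, and lists RLTR20A among the species down-regulated with TBT, though not in P4 cells. That is a measure other than a total, and it was not repeated here. In F1 P4 cells its total had 415 to 546 CPM (median 449) in DMSO and 347 to 471 (median 422) in TBT libraries, with 2 TBT libraries below all DMSO libraries and the rest within their range (-0.16 ± 0.082, FDR 0.439). The values were 378 to 442 and 346 to 404 in F1 P5 cells (-0.09 ± 0.066, FDR 0.970), and 940 to 1090 and 778 to 1359 in F1 P6 cells (-0.05 ± 0.108, FDR 0.861). In F3 P4 cells the DMSO libraries had 357 to 471 and the TBT libraries 63.7 to 519, where 3 TBT libraries lay above and 2 below all DMSO libraries (-0.74 ± 0.612, FDR 0.508). Both low libraries were TBT 5 and 9, and without them the change was 0.31 ± 0.114 (FDR 0.299). F3 P5 gave 0.01 ± 0.662 (FDR 0.997), and F3 P6 cells 830 to 900 and 763 to 879 (-0.08 ± 0.043, FDR 0.547).

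**Figure D4:**
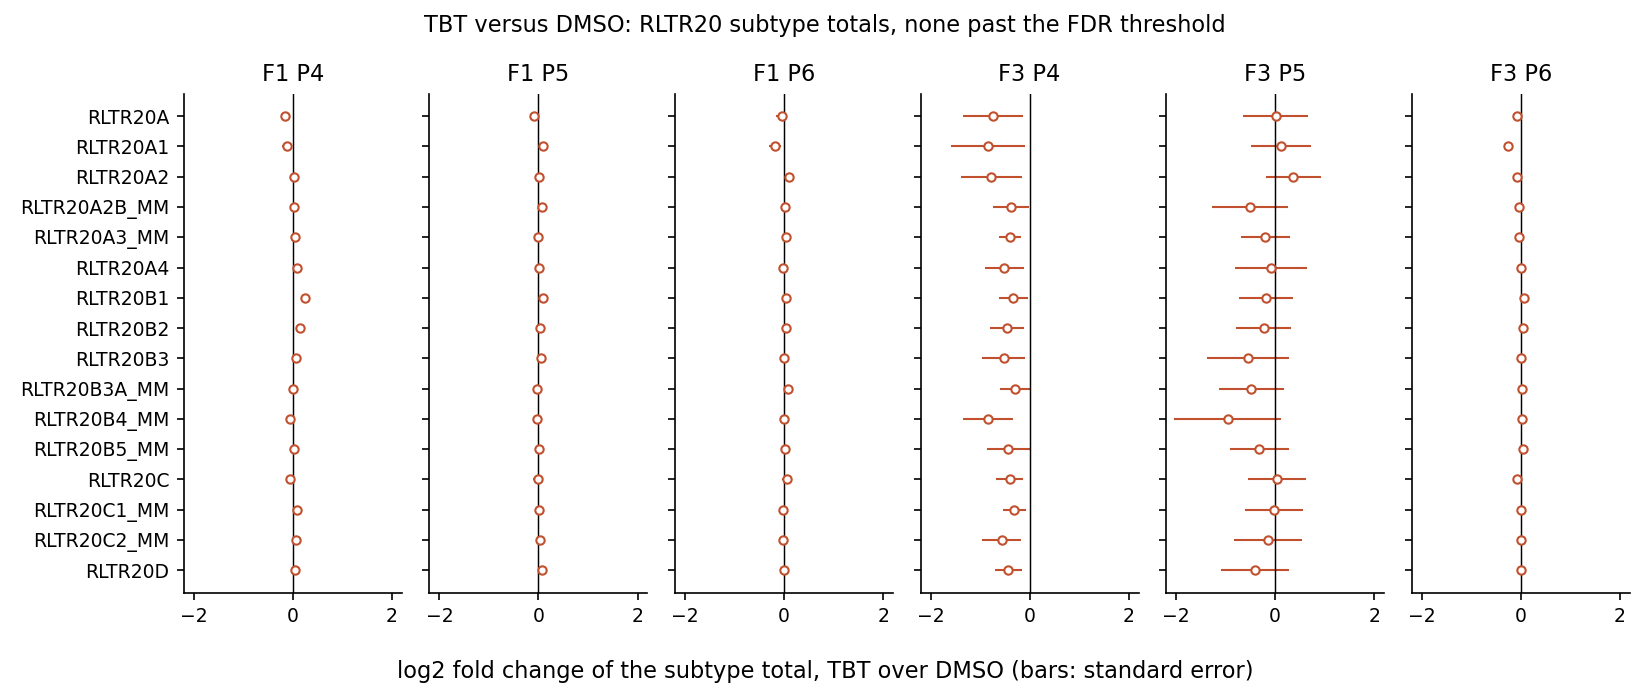
Log2 change of the 16 RLTR20 subtype totals, TBT against DMSO, in 6 panels for the populations P4, P5 and P6 of F1 and F3. Open circles are estimates and bars standard errors; no circle has an FDR under 0.05, and the bars are widest in F3 P4 and P5 cells, where RLTR20A has standard errors of 0.612 and 0.662.

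In F3 P4 cells all 16 totals were lower with TBT (median -0.44), beside a median of -0.41 over all species, which became -0.004 with a common total. Without TBT 5 and 9, 11 of 16 were higher (median 0.08, beside -0.01 over all species), with 0 called. The difference between P5 and P4 cells in their response to TBT was tested as an interaction, and 0 of 16 totals were called in F1 and in F3 (0 had an unadjusted p under 0.05 in either). The F3 fit holds the libraries that stand apart, and its SE ran from 0.527 (A3_MM) to 1.31 (B4_MM). In F1 the largest SE was 0.126 (B1). The totals outside genes gave 0 calls everywhere. In F1 P6 cells all 16 of these were higher with TBT, with a median change of 1.04 against 1.22 over all species. Without TBT libraries 7 and 8 it was 9 of 13 with a median of 0.18 against 0.31. In F3 P5 cells 0 of 16 were higher, with a median of -0.49 against -0.41 over all species. Without DMSO 1, DMSO 2 and TBT 5, 14 of 16 were higher, with a median of 0.52 against 0.43.

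At the level of loci, limma called 1 RLTR20 locus in F1 P6 cells and 0 in the other 5 comparisons, in which between 2744 and 4106 loci were tested. The background was 0.00341% in F1 P6, 0.0106% in F1 P5, 0.0343% in F3 P6 and 0% in the other 3. An unadjusted p under 0.05 was met by 7.76% of the RLTR20 loci in F1 P4 (7.09% of all loci), 5.92% in F1 P5 (6.89%), 3.35% in F1 P6 (3.68%) and by 0.765%, 0.474% and 7.84% (1.65%, 1.01% and 7.96% of all loci) in P4, P5 and P6 cells of F3. Of the loci outside genes, 24, 94, 3, 89, 191 and 8 RLTR20 loci were tested in these 6 comparisons and 0 were called by limma, while 2, 16, 0, 2, 7 and 3 had an unadjusted p under 0.05. That p was met by 11.1%, 18.3%, 11.8%, 3.87%, 3.23% and 15.5% of all LTR loci outside genes. Of all LTR loci outside genes, 0.0996% were called higher in F1 P5 cells, and 0.0791% higher and 0.316% lower in F3 P6 cells, with 0 called elsewhere. The quasi-likelihood test of edgeR gave 1 locus in F1 P6 and 0 elsewhere, and the likelihood ratio test, which the study's own pipeline used, gave 9, 5, 2, 0, 40 and 12. As shares of the RLTR20 loci tested these were 0.282%, 0.122%, 0.0638%, 0%, 1.35% and 0.320%, beside 0.0982%, 0.32%, 0.05%, 0.00463%, 3.13% and 0.32% of all loci by the same test. With the first number of the F1 germline libraries as a random effect, limma called 0 RLTR20 loci and 0 totals in F1 P4 and P5 cells.

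The called locus is the CA-rich A4 element in an intron of Atf3, which encodes a stress-induced transcription factor. In F1 P6 cells it had 4.94, 3.00, 4.68, 2.02 and 22.9 CPM in DMSO libraries 1, 2, 3, 4 and 12. The TBT libraries 5 to 11 had 17.9, 36.8, 26.9, 31.6, 35.5, 22.1 and 26.6. All TBT libraries lay above DMSO 1 to 4, but DMSO 12 lay within their range, so that the groups overlapped. The means were 7.51 ± 8.69 (SD, n = 5) and 28.2 ± 6.90 (SD, n = 7), a change of 2.36 ± 0.343 (FDR 0.0122 in limma). Its pooled count was nearly that of the MTEa element in the same intron (above), so the level of the element and of the Atf3 transcript cannot be told apart. The call was lost without any 1 of DMSO 1 to 4 or TBT 6, 7 and 9, with changes of 2.05 to 2.36, and also without TBT 7 and 8 together (2.33). In F1 P5 cells the locus changed by 1.68 (FDR 0.544) and in F3 P6 cells by -0.99 ± 0.327 (FDR 0.424).

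**Figure D5:**
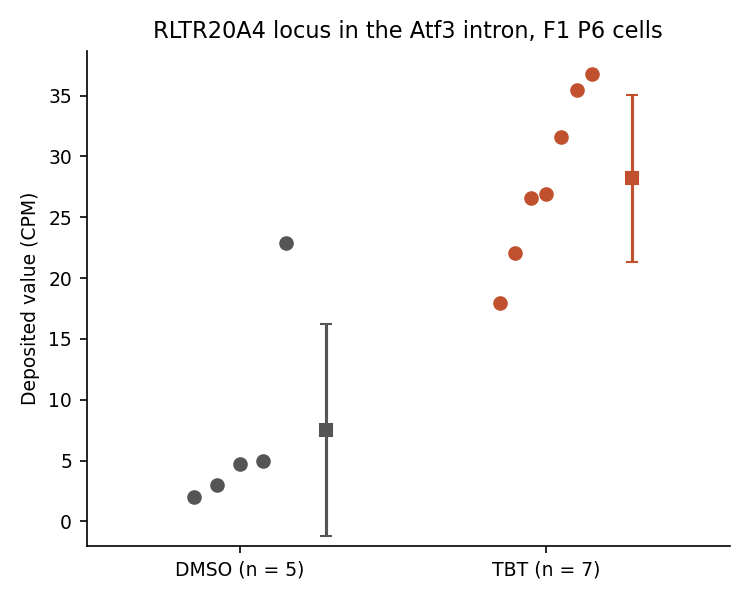
Deposited values (CPM) of the A4 element in the Atf3 intron in F1 P6 libraries; points are libraries, squares means and bars SD (n = 5 DMSO, n = 7 TBT). DMSO 12, at 22.9, lies among the TBT libraries, which run from 17.9 to 36.8, while the other DMSO libraries run from 2.02 to 4.94.

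The loci with the smallest p in the comparisons without a call are given next. They were picked as extremes of all loci tested, so their changes do not measure what could be detected. In F1 P4 cells a C2_MM element in an intron of Rabep1, an effector of endosomal Rab5 (chr11:70905884-70906013), had 2.71 to 5.34 CPM in the 5 DMSO and 7.37 to 10.4 in the 7 TBT libraries, without overlap (1.04 ± 0.214, FDR 0.582). In F1 P5 cells it changed by 0.77 (FDR 0.492). A B3 element in an intron of Me1, the cytosolic malic enzyme (chr9:86660720-86660880), had 6.14 to 22.4 CPM with DMSO and 1.79 to 7.68 with TBT in F1 P4 cells (-1.27 ± 0.319, FDR 0.582), and the groups overlapped. In F1 P5 cells a D element outside genes (chr8:47458461-47458888), 12099 bases before Stox2, had 0.700 to 2.63 and 2.54 to 5.48 (1.48 ± 0.332, FDR 0.195), and an A4 element in an intron of Mro had 2.52 to 10.3 and 0.652 to 2.2 (-1.86 ± 0.426, FDR 0.212).

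In F3 P4 cells a C1_MM element in an intron of Hsd17b2, a steroid dehydrogenase (chr8:117757298-117757350), had 17.5, 15.6, 27.3 and 8.88 CPM with DMSO and 0, 4.64, 7.74, 5.59 and 0 with TBT. No TBT library reached the lowest DMSO library, and both zeros were the libraries with the fewest reads, TBT 5 and 9 (-3.27 ± 1.25, FDR 0.870). Without these libraries the change was -1.42 ± 0.437 (FDR 0.530). An A4 element in an intron of Irs4, an insulin receptor substrate (chrX:141717166-141717221), had 0 to 0.935 and 0.704 to 6.09 (2.49 ± 1.05, FDR 0.870). In F3 P5 cells a B5_MM element (chr9:118355832-118356293) had 0, 0, 0 and 1.39 with DMSO and 22.0, 1.47, 0.963, 5.61 and 2.93 with TBT, the 22.0 in TBT 5 (3.12 ± 1.34, FDR 1.00, and 2.00 ± 1.09, FDR 0.845, without DMSO 1, DMSO 2 and TBT 5). A B3A_MM element on the Y chromosome (chrY:9836739-9837037) had 3.94, 24.9, 2.21 and 0 with DMSO and none with TBT (FDR 1.00).

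In F3 P6 cells the spread was narrow. A C1_MM element in an intron of Lama2, a laminin chain of the basement membrane (chr10:27225011-27225072), had 10.9, 18.7, 7.94 and 16.2 CPM with DMSO and 24.6, 24.4, 21.9, 21.9 and 23.9 with TBT (0.86 ± 0.180, FDR 0.102). In F1 P6 cells the same locus had the opposite sign (-0.82 ± 0.459, FDR 0.999). A C1_MM element in an intron of Dad1, a subunit of the oligosaccharyltransferase (chr14:54244960-54245016), had 138, 132, 180 and 133 with DMSO and 108 to 111 with TBT (-0.40 ± 0.0915, FDR 0.176). At both loci the groups did not overlap. Without DMSO 2, 6 of 3789 RLTR20 loci were called in F3 P6 cells, all higher (0.158%), beside 0.115% of all loci higher and 0.0208% lower.

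The MBD data asked whether methylation of the elements differed with TBT in P6 cells. MBD enrichment pulls down methylated DNA, and the counts were given per window of 100 bases. RLTR20 loci overlapped by at least 50 bases with 233 of 154773 windows in F1 and 250 of 164382 in F3, so that most members were not covered. Windows in RLTR20 held a mean of 0.961 CpG in F1 and 1.08 in F3, against 0.818 and 0.813 in all windows. In F1 they had 7.13 ± 0.084 CPM per window in TBT (SD, n = 4) and 7.04 ± 0.193 in DMSO libraries (SD, n = 3), next to 6.46 over all windows. In F3 they had 7.43 ± 0.205 (SD, n = 7) and 7.36 ± 0.119 (SD, n = 5), next to 6.08. The exposure groups overlapped in both generations, from 7.05 to 7.25 with TBT and 6.89 to 7.26 with DMSO in F1, and from 7.06 to 7.63 and 7.24 to 7.54 in F3.

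Of the RLTR20 windows, 64 could be tested in F1 and 101 in F3, and edgeR called 0 in both, as did DESeq2. In edgeR 2 windows had an unadjusted p under 0.05 in each generation, where 5.05% of all windows did in F1 and 5.16% in F3, and in DESeq2 1 and 2 windows. Over all windows 11 of 34559 were called in F1 (0.0318%) and 0 of 47563 in F3. The median log2 change of the RLTR20 windows was 0.02 in F1 and 0.05 in F3. A window in an intronic D element (chr17:12426001-12426100) had 17.3, 18.3, 16.9 and 10.5 CPM in TBT and 19.2, 24.2 and 27.0 in DMSO libraries of F1, without overlap (-0.61, FDR 0.976). The other F1 window under that p went the opposite way: in an intronic B3A_MM element (chr2:40914901-40915000) it had 9.44 to 18 in TBT and 4.32 to 9.98 in DMSO libraries, with overlap (0.80, FDR 0.976). In F3 both had a positive sign. A window in a C2_MM element outside genes (chr17:87551301-87551400) had 7.20 to 17 in TBT and 3.63 to 12 in DMSO libraries of F3, with overlap (0.68, FDR 0.913), and one in an A4 element outside genes (chr5:100839701-100839800) had 5.11 to 14.8 and 1.45 to 8.83, also with overlap (0.76, FDR 0.938). In F1 the next window by p in each direction had log2 changes of 0.52 and -0.50, and in F3 the windows of smallest p with a negative sign had -0.41 and -0.35 (FDR 0.958 to 0.996).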

How the data were processed

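RNA of sorted cells was read in 62 libraries (oligo-dT SMART-seq). Per the labels and the study's methods, the authors trimmed reads with Trim Galore, aligned them with STAR to GRCm38 (mm10), counted reads per RepeatMasker LTR locus with a modified ERVmap and scaled them by TMM; versions and the handling of reads with several matches are not given in the sources used here. The deposited RNA values are a signal, TMM-scaled CPM; all steps were whole reads (100% within 0.01 read), so reads were recovered for the edgeR alternatives. The deposited MBD values are raw counts per 100-base window, with a column headed CF that was taken as the CpG number of the window.

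Here, log2(value + 1 unit), with 1 unit set to the smallest positive value of a library (the median of these), was fitted per locus (mean of at least 5 units) and per species total with limma 3.58.1 (trended), with Benjamini-Hochberg adjustment over all loci or species and a threshold of 0.05. MBD counts were fitted with edgeR 4.0.16 (quasi-likelihood test after its filter on low counts), with DESeq2 1.42.0 as an alternative, in R 4.3.3. Germline and somatic tables, and F1 and F3, were normalized separately, so no test crosses them. Loci were placed against GENCODE vM21; locus starts, which count from 0, are printed from 1. The scripts were tested on simulated data.

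Between 246520 and 8161548 reads per RNA library fell on LTR loci, and the MBD libraries held 701493 to 1913353 counts. Intervals cover counting error only, since reads carry no molecular identifiers.

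The labels of P4 and P5 libraries share replicate numbers in F1 and F3, and no source used here states that a number marks 1 animal. The correlation of same-numbered deviations was 0.205, 0.101, 0.206 and 0.272 for F3 DMSO numbers 1 to 4. For F3 TBT numbers 5 to 9 it was 0.386, 0.471, 0.392, -0.0884 and -0.0931. In F1 it exceeded 0.1 in 1 of 4 DMSO and 5 of 7 TBT pairs. These correlations do not decide the pairing in either generation. The main fits have no block, so they leave out any pairing, and the blocked fits are given as alternatives.

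Members and lists were chosen with earlier results of these data known. Loci named are, per comparison, those past the threshold if at most 6, otherwise the 3 higher and 3 lower with the largest change among those whose groups do not overlap, and with none called the 1 higher and 1 lower with the smallest p; of MBD windows, up to 2 in each direction with the smallest p; and the 3 highest levels of each population, overall and outside genes, of which the text gives a part. The likelihood ratio test, the scaling to a common total, other pseudocounts and filters, the replicate block, TBT in place of DMSO libraries, the first number of the F1 germline libraries as a random effect and leaving out each library were tried as alternatives. The totals outside genes, the CA-rich class, the block in TBT libraries and the exclusion of libraries that stand apart were added after seeing the data.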

Additional observations from a re-analysis of the deposited data

Results flagged for a closer look

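A sample far from the rest of its group was looked for in 41 sets of values, each over a group of 4 to 7 libraries, with Dixon's test, where chance gives about 1 in 20 sets, and 4 were found. That rate does not hold where all other values are 0, as for the Ncan and Col24a1 elements. Any single value above 0 is then flagged. The A4 element in the Ncan intron had 0.258 CPM in P4 DMSO library 43-4 of F1 and 0 in the other 4, which is a single read. The C1_MM element in the Col24a1 exon had 1.07 CPM in P4 DMSO library 43-5 of F1, from 4 reads, and 0 in the other 4.

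The A4 element in the Atf3 intron had 22.9 CPM in DMSO library 12 of F1 P6 cells against 2.02 to 4.94 in the other 4. Without that library the change with TBT was 2.88 (FDR 5.06e-07 in limma), and with it 2.36 (FDR 0.0122). The RLTR20 level outside genes was 3687 RPM in TBT library 5 of F3 P5 cells and 633 to 1399 in the other 4 TBT libraries. That library also had the fewest reads of all (246520) and 31.1% of its LTR reads outside genes; the part of depth in the value was not tested.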

How the results depend on the processing

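Of the values that answer a comparison, 326 under the alternatives kept their direction or count and 47 moved. Of the other values (single loci and totals, and counts of positive signs), 472 kept theirs, 48 moved, 37 turned in sign, 31 lost and 3 gained significance. RLTR20 loci called with TBT were 9, 5, 2, 40 and 12 with the likelihood ratio test in F1 P4, F1 P5, F1 P6, F3 P5 and F3 P6 cells, 7, 2 and 3 without a filter in F1 P5, F1 P6 and F3 P6 (0.0528%, 0.0208% and 0.0395% of RLTR20 loci, 0.202%, 0.00585% and 0.0367% of all), and 0 in F1 P6 with a pseudocount of 0.25 units or without the libraries that stand apart. Leaving out 1 library gave 0 to 2 in F1 P6 (2 without DMSO 12 or TBT 11, with 0% to 0.0158% of all loci called) and 0 to 6 in F3 P6 (0.0114% to 0.136%).

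For P5 against P4 in F1, the TBT libraries gave 976 loci (26.9% of RLTR20, 28.8% of all) and, with a replicate block, 1266 loci (34.9%, 37.8% of all) and 8 totals (67.2% of species), leaving out 1 library 230 (without P5 43-5; 6.76%, 7.26% of all) to 421 loci (12.1%, 13.4% of all) and 3 (without P4 43-5 or P5 44-1) to 7 totals (36.4% to 48.6% of species). Totals outside genes gave 15, 15 with a common total, 16 with the replicate block (73.5% of species higher), 16 in TBT libraries and 14 without CA-rich loci (74.1%). For same-numbered P4 and P5 libraries of F1, r was 0.0171, -0.0071, -0.0002 and 0.130 in DMSO (2 of 4 libraries matched their own number best). It was 0.0229 to 0.267 in TBT libraries (4 of 7). The main fit does not use these numbers. With them as a block, 255 loci were higher and 248 lower (7.19% and 8.99% of all loci) and 7 totals were called (51.7% of species). In F3, loci called were 1 with a common total (0.19% of all), 9 with the replicate block and 0 to 59 leaving out 1 library (59 without P5 DMSO 3, 1 without P5 DMSO 4). F3 totals called were 2 with a common total (14.3% of species), 1 in edgeR, 4 with the replicate block, 3 without the libraries that stand apart and 0 to 4 leaving out 1 library (2 without P5 DMSO 2, 15.7% of species, and 4 without P5 DMSO 3, 20.8%). Outside genes they were 8, then 12 with a common total (59.1% of species), 12 with the replicate block, 2 in TBT libraries and 7 without CA-rich loci (38.8%). The RLTR20 share of LTR reads (median 2.91%) was 0.925% outside genes.

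Of the 37 turned signs, 30 came with loci outside genes, which are other loci than those of the full totals. For these, in the order plain, common total, replicate block, TBT libraries and without CA-rich loci, the change from P4 to P5 in F1 was 1.56, 1.69, 1.47, 1.62 and 1.56 for A2, 1.03, 1.16, 1.09, 1.43 and 0.91 for A4 (0.0028 with a common total of all loci), 1.36, 1.49, 1.32, 1.69 and 1.48 for C1_MM (0.013) and 0.88, 1.01, 0.92, 1.21 and 0.88 for D, and in F3 0.70, 1.16, 0.70, 0.63 and 0.70 for D. With TBT, totals outside genes turned to 0.043 for A in F1 P5, 0.11 for A1 in F1 P6, 0.54 for A3_MM in F3 P4 and 0.94 for A1 in F3 P6. A3_MM in F3 P4 also turned to 0.015 with a common total, 0.021 in the quasi-likelihood and 0.020 in the likelihood ratio test of edgeR. B4_MM in F3 P5 turned to 0.24 without TBT 5, 0.41 without the libraries that stand apart and 0.49 for its loci outside genes without them. The cause of these turns was not tested. Low counts limit single loci outside genes, of which 3 to 191 could be tested per comparison.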

Other observations

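RLTR20 was set beside other LTR families by composition and place. RLTR13, with 9499 loci, had a median length of 809 bases, 0.105% CA-rich loci and 77.0% of its loci outside genes, and RLTR44 and RLTR45 together had 4466 loci of 441 bases. RLTR11 and RLTR17, with 38307 loci and a median of 144 bases, lay nearest to RLTR20 among these 3 sets in length and CA-rich share, with 36.2% CA-rich loci and 41.8% in introns against 63.2% and 42.1%. RLTR17B_Mm, at 50.6%, was the species with the highest CA-rich share after the 3 RLTR20 subtypes.

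Among the exonic members, an A3_MM element in a non-coding exon of Pdcd5 had 40670 pooled reads, an A4 element in the UTR of Psme3 28859 and an A4 element in the coding sequence of Sdhc, a subunit of succinate dehydrogenase, 21348. Their counts include reads of the exon that holds them.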
